A study of Mus musculus with 6 samples.

Results

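Ribosome assembly was followed through 36 genes of the nucleolus, of 32286 features counted, in cells of mouse quadriceps muscle regenerating after cardiotoxin, a snake venom toxin that destroys myofibres. The genes had been chosen by the difference in their counts between clodronate and control, since several were higher after clodronate in macrophage, fibroblast and myogenic cells. It holds proteins that carry out each step of ribosome assembly, and also Myc, a transcription factor, and Nme1, a nucleoside diphosphate kinase, neither of which is an assembly factor. In the CLL group (3 libraries) mice received liposomes loaded with clodronate, which kill the phagocytes that take them up. In the SHAM group (3 libraries) mice received liposomes of phosphate-buffered saline. Liposomes were given intravenously 1 day before and 2 days after the injury, and muscle was taken 5 days after it. Mice of both groups carried the Cdh5-CreERT2 and R26R-tdTomato alleles, that is, a tamoxifen-inducible recombinase driven by an endothelial promoter with a red fluorescent reporter. Each library came from a different mouse, and the labels used here give neither sex nor age. The depletion of circulating monocytes is described by the submitters as partial, so macrophages were also sampled in the CLL group.

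Ribosomes are built in the nucleolus, where RNA polymerase I transcribes the precursor of the ribosomal RNAs. Small nucleolar ribonucleoproteins guide the chemical marking of that precursor: box C/D particles add methyl groups to riboses and box H/ACA particles turn uridines into pseudouridines. A small-subunit processome and a series of large-subunit intermediates then cut, fold and export the particles. MYC raises the transcription of many of these genes in growing cells, and in muscle the activation of quiescent stem cells is accompanied by growth of the cell and its nucleolus.

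The E-box CACGTG, the sequence that MYC binds best together with its partner MAX, was looked for in the promoters of the members as a description of their sequence. A promoter sequence from RefSeq (build GRCm38.p6), spanning 250 bases before to 50 bases after the start of the gene, was at hand for 29 of the 36 members and is read on the strand of the gene. Rrs1, Myc, Gnl2, Npm1, Rrp12, Bop1 and Fbl had no entry. CACGTG, which reads the same on both strands, was present in 8 of the 29 (27.6%), namely Mybbp1a, Nme1, Nop2, Pes1, Pno1, Utp20, Utp4 and Wdr43. It was present in 8.09% of the promoters of 27025 genes and in 11.5% of those of the 10734 genes that could be tested in fibroblasts. Promoters of 4 members are printed as contrasting pairs: Nme1 and Utp4 hold the E-box, Nop56 and Nop58 do not, and in each pair the first member had a large and the second a small difference between CLL and SHAM fibroblasts. Capitals mark the E-box. Nme1 has 2 listed starts, both with CACGTG in the promoter, and the upstream 1 is shown; it lies on the minus strand at chr11:93968223-93968522, Utp4 on the plus strand at chr8:106893390-106893689, Nop56 on the plus strand at chr2:130274162-130274461 and Nop58 on the plus strand at chr1:59684756-59685055.
Nme1: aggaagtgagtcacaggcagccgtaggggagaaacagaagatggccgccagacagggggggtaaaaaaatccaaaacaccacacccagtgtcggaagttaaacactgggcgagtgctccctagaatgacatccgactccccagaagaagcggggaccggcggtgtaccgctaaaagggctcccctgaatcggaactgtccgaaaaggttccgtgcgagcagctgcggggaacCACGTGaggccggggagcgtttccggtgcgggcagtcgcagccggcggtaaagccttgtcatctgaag
Utp4: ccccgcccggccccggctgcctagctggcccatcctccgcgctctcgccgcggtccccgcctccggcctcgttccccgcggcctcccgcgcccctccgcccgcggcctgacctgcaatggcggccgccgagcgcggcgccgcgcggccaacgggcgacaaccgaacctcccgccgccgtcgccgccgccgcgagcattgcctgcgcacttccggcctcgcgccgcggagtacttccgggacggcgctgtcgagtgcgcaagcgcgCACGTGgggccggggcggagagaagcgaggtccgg
Nop56: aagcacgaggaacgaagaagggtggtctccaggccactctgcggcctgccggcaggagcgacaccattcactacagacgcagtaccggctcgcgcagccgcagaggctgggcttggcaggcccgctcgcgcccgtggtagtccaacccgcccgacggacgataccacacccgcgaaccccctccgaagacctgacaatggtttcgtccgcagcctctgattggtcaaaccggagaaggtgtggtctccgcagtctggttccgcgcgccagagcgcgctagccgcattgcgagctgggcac
Nop58: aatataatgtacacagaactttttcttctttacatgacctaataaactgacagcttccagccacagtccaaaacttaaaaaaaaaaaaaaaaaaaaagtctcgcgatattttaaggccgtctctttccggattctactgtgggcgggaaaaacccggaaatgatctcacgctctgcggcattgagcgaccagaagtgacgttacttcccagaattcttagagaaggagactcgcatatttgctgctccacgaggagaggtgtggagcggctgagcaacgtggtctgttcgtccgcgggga

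Other motifs were counted in the same way. The GC box GGGCGG, searched on both strands, was in 20 of the 29 promoters (69.0%), against 38.2% of all genes and 68.0% of the genes tested in fibroblasts. The letters CCGGAAG, of the kind bound by ETS factors, were in 7 (24.1%), against 9.93% and 19.3%. The TATA-like TATAAA was in 2 (6.90%), against 15.7% and 9.01%. The pattern GCGC, any 2 bases, GCGC, of the kind bound by NRF1, was in 8 (27.6%), against 7% and 14.5%. Members with the E-box did not have the larger median: in fibroblasts the median log2 fold of CLL over SHAM was 0.52 over the 8 members with CACGTG and 0.68 over the 21 without it. It was 0.25 against 0.39 in myogenic cells and 0.25 against 0.29 in macrophages. These are counts of letters, with no measurement of binding. The members had been chosen by their CLL over SHAM differences, so nothing is read from the medians.

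The 6 libraries differed in depth, and the ranges of the groups overlapped. Totals of unique molecular identifiers (UMIs, counts of captured RNA molecules) were 64325026, 58625420 and 75130565 in the CLL libraries and 94841003, 23873416 and 32134578 in the SHAM libraries. After filters 46685 of 60282 barcodes were kept, and 6 classes of cells named from marker genes held at least 20 cells in every library: macrophage/monocyte-like, fibroblast/tenocyte-like, myogenic-like, dendritic-like, endothelial-like and myofibre-like cells (below, macrophages, fibroblasts, myogenic, dendritic and endothelial cells and myofibres). Libraries CLL 2 and SHAM 3 stood apart, with 55.4% and 81.7% of their kept cells in clusters that no marker list named, against 14.1% to 23.8% in the others, and the members' counts are also given without both. Values are CPM, counts scaled to a common total, of the UMIs summed over the cells of a class in a library, so they are shares of the RNA of that class and do not measure the RNA per cell. The members together had 7263 to 34217 UMIs per library in macrophages, 15954 to 114047 in fibroblasts and 6934 to 34262 in myogenic cells, but 499 to 950 in the endothelial cells of CLL libraries and 138 to 1031 in myofibres. All 36 members passed the filter on low counts in the first 3 of these classes.

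Macrophages, fibroblasts and myogenic cells are the classes and the contrast from which the members had been proposed, so their differences between CLL and SHAM are given as a description, without p-values. The summed level of the 36 members was higher in every CLL library than in any SHAM library in all 3 classes. In fibroblasts it was 3201, 3450 and 3198 CPM in the CLL libraries, against 2201, 2099 and 2286 CPM in the SHAM libraries, a ratio of 1.50. In myogenic cells it was 4464, 4668 and 4334 CPM in the CLL libraries, against 3274, 3712 and 3315 CPM in the SHAM libraries, a ratio of 1.31. In macrophages it was 2205, 2147 and 2094 CPM in the CLL libraries, against 1695, 1854 and 1786 CPM in the SHAM libraries, a ratio of 1.21. Ribosomal proteins, the products that the pathway assembles into ribosomes, did not show a shift of this size: their summed CLL over SHAM ratio was 1.07 in fibroblasts, 1.03 in myogenic cells and 0.961 in macrophages.

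**Figure D1:**
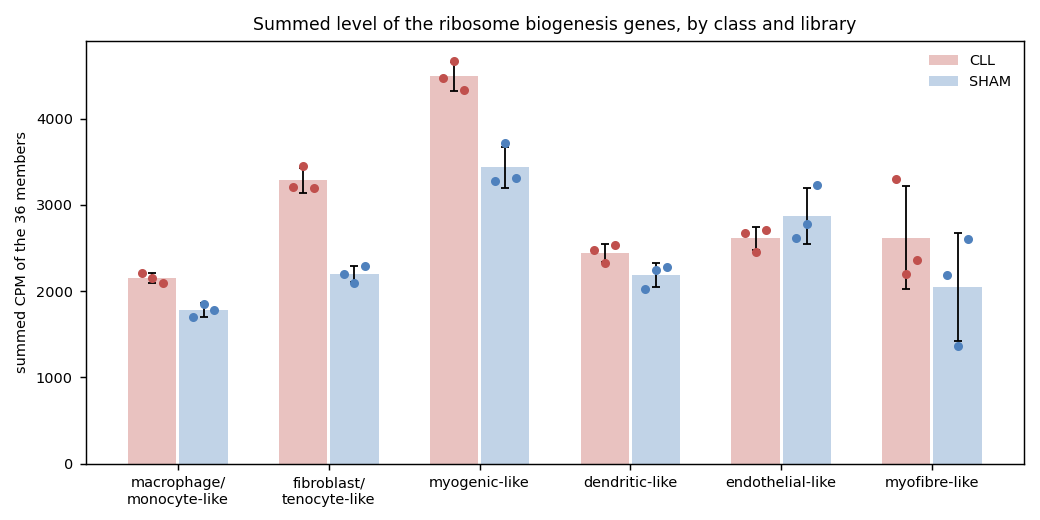
Summed level of the 36 members in CPM (vertical axis) in each of the 6 classes, with 1 point per library, CLL left of SHAM, bars from 0 to the group mean and error bars of 1 SD (n = 3 each). The 3 CLL libraries lie above the 3 SHAM libraries in macrophages, fibroblasts and myogenic cells, where the ratios are 1.21, 1.50 and 1.31. They do so narrowly in dendritic cells, where the ratio is 1.12, and the groups overlap in endothelial cells and myofibres. Levels are scaled within a class, so they compare CLL with SHAM and not 1 class with another. With all classes scaled together, macrophages, fibroblasts and myogenic cells stayed separate, but the dendritic, endothelial and myofibre outcomes changed.

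Single members followed the sum in most cases. Fibroblasts had 28 members higher and 0 lower in CLL libraries at an adjusted p under 0.05 (edgeR quasi-likelihood fit over all genes), beside 12.9% of all 14117 genes tested called higher. Myogenic cells had 7 higher and 1 lower, beside 7.95% of 11450 genes called in either direction, 3.52% higher and 4.43% lower. Macrophages had 1 higher and 0 lower, beside 1.1% of 11328 genes called higher and 1.9% lower. The macrophage count was 0 without CLL 1, CLL 3 or SHAM 3, 2 without CLL 2 or SHAM 2 and 3 without SHAM 1. The myogenic count of higher members was 1 without CLL 1 or CLL 3, 3 without CLL 2, SHAM 1 or SHAM 3 and 12 without SHAM 2. Without both CLL 2 and SHAM 3, 24 members were called higher in fibroblasts, beside 1271 of 14386 genes. In myogenic cells 1 was, beside 67 of 12226 genes, and in macrophages 0, beside 5 of 11345. In these fits 0 members were lower, and the medians of the log2 folds were 0.65, 0.38 and 0.25. Because the members were proposed from this contrast, nothing is read from these counts. The median log2 fold of CLL over SHAM over the members was 0.67 in fibroblasts, 0.36 in myogenic cells and 0.29 in macrophages, beside -0.02, -0.05 and -0.0032 over all genes tested. Of the 36 members, 32 had a fold above 0 in all 3 classes, the exceptions being Myc, Nop10, Nop58 and Polr1b. In 12 members (Bop1, Bysl, Dkc1, Ebna1bp2, Ftsj3, Nhp2, Nme1, Nop16, Nop56, Npm1, Rrs1 and Wdr12) every CLL library was above every SHAM library in all 3 classes, and in 3 members (Ddx18, Nop58 and Wdr43) in none of them. The shares of all genes with these outcomes across the 3 classes were not counted, so nothing is read from these numbers either. In macrophages 16 members were separated in this way, beside 12.1% of all genes tested, in fibroblasts 33, beside 21.2%, and in myogenic cells 19, beside 15% of all genes tested. The member just inside the threshold in fibroblasts was Nop2 (log2 fold 0.51 ± 0.17, SE) and the one just outside was Gnl2 (0.41 ± 0.14, SE).

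**Figure D2:**
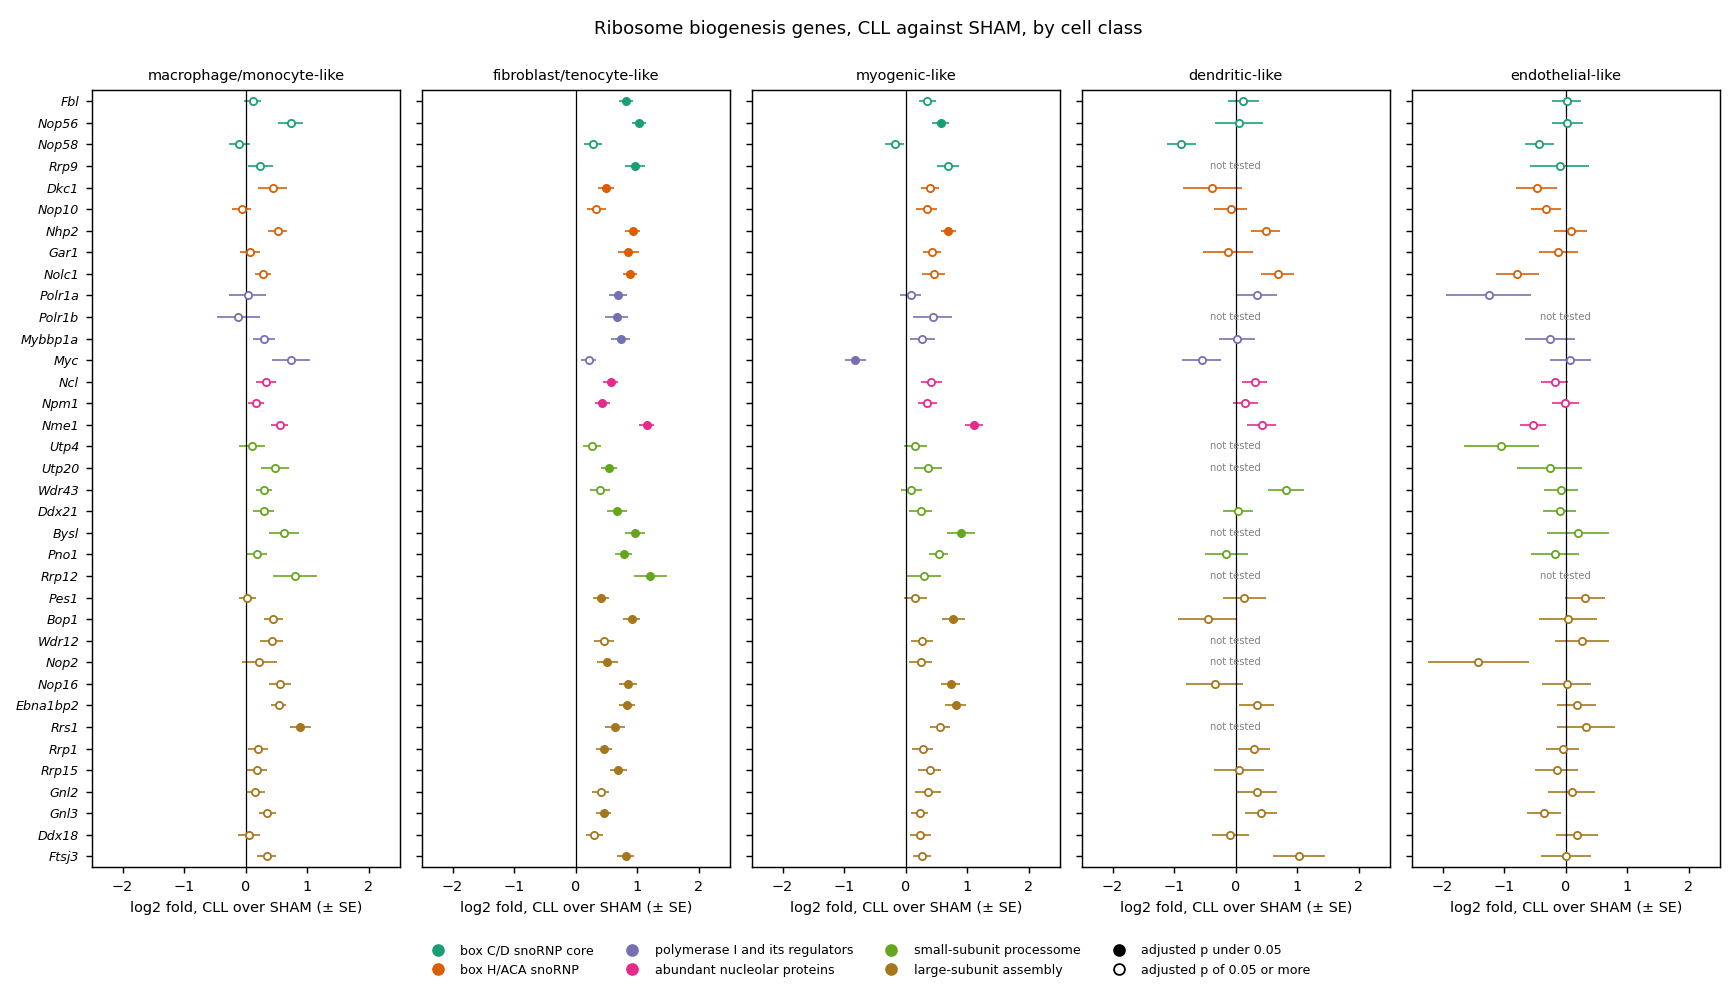
Log2 fold of CLL over SHAM (horizontal axis, log2 units) for each of the 36 members, coloured by role, in macrophages, fibroblasts, myogenic, dendritic and endothelial cells, with bars of 1 SE; filled points had an adjusted p under 0.05. Fibroblast folds lie between 0.21 for Myc and 1.21 for Rrp12, and the only filled point below 0 is Myc in myogenic cells at -0.82.

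In the box C/D particle the 2 paralogous scaffold proteins, Nop56 and Nop58, had unlike differences. Nop56 had 53.03, 55.7 and 52.99 CPM in CLL fibroblasts, against 24.4, 25.4 and 29.5 CPM in SHAM fibroblasts. The groups were far apart, with a log2 fold of 1.03 ± 0.11 (SE). In macrophages Nop56 had 41.2, 41.4 and 27.2 CPM in CLL libraries, against 21.4, 26.5 and 18.5 CPM in SHAM libraries (log2 fold 0.73 ± 0.20, SE), and in myogenic cells 77.8, 87.7 and 67.2 CPM against 50.6, 54.1 and 52.0 CPM in SHAM libraries (0.57 ± 0.14, SE). Nop58, which pairs with Nop56 in the same particle, had 94.5, 111 and 83.9 CPM in CLL fibroblasts, against 66.4, 93.4 and 79.1 CPM in SHAM fibroblasts, and these groups overlapped (log2 fold 0.28 ± 0.15, SE). Its log2 fold was -0.10 ± 0.17 (SE) in macrophages and -0.18 ± 0.16 (SE) in myogenic cells. Fbl, the fibrillarin methyltransferase, had 81.8, 78.7 and 90.4 CPM in CLL fibroblasts, against 50.8, 48.2 and 42.9 CPM in SHAM fibroblasts, a log2 fold of 0.82 ± 0.11 (SE) with no overlap. In myogenic cells Fbl had 141, 120 and 140 CPM in CLL libraries, against 102, 113 and 99.6 CPM in SHAM libraries (0.35 ± 0.13, SE), also without overlap. In macrophages the Fbl values of the groups overlapped, with 70.1, 56.7 and 74.6 CPM in CLL libraries, against 58.4, 66.6 and 62.7 CPM in SHAM libraries (0.11 ± 0.14, SE). Rrp9, a protein of the U3 particle that guides the first cuts, had 12.5, 11.97 and 14.4 CPM in CLL fibroblasts, against 5.58, 7.11 and 7.66 CPM in SHAM fibroblasts (0.96 ± 0.16, SE). Of the 4 members of this group, 3 were called higher in fibroblasts, 1 in myogenic cells and 0 in macrophages.

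The box H/ACA particle had 4 of 5 members called higher in fibroblasts, 1 in myogenic cells and 0 in macrophages. Nhp2, a core protein that binds the guide RNA, had 98.4, 93.6 and 104 CPM in CLL fibroblasts, against 59.7, 45.8 and 50.4 CPM in SHAM fibroblasts (log2 fold 0.92 ± 0.12, SE). In myogenic cells it had 153, 132 and 152 CPM in CLL libraries, against 91.7, 88.3 and 91.3 CPM in SHAM libraries (0.69 ± 0.13, SE), and in macrophages 96.6, 68.3 and 95.4 CPM against 62.8, 63.3 and 56.4 CPM in SHAM libraries (0.52 ± 0.15, SE). CLL libraries were thus above SHAM libraries in each of the 3 classes. Dkc1, the pseudouridine synthase of the particle, had log2 folds of 0.49 ± 0.13 in fibroblasts, 0.39 ± 0.15 in myogenic cells and 0.44 ± 0.24 in macrophages (SE each), again without overlap. Gar1, another core protein, had 28.7, 44.8 and 33.6 CPM in CLL fibroblasts, against 18.5, 19.5 and 21.5 CPM in SHAM fibroblasts (0.85 ± 0.16, SE), whereas in macrophages its groups overlapped (0.07 ± 0.16, SE). Nolc1, a chaperone that shuttles these particles, had 46.0, 52.1 and 45.0 CPM in CLL fibroblasts, against 25.0, 24.9 and 27.7 CPM in SHAM fibroblasts (0.88 ± 0.11, SE). Nop10, the smallest core protein, had 125, 120 and 117 CPM in CLL fibroblasts, against 73.4, 106 and 109 CPM in SHAM fibroblasts. Its log2 fold of 0.33 ± 0.15 (SE) was the lowest of the group there, and in macrophages it was -0.07 ± 0.16 (SE) with overlapping libraries.

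Of the 4 members among RNA polymerase I and its regulators, 3 were called higher in fibroblasts, and Myc was called lower in myogenic cells. Polr1a, the largest subunit, had 13.9, 15.1 and 14.8 CPM in CLL fibroblasts, against 8.81, 7.90 and 10.6 CPM in SHAM fibroblasts (log2 fold 0.68 ± 0.14, SE). Polr1b, the second largest, had 4.53, 4.59 and 4.65 CPM in CLL fibroblasts, against 2.79, 3.03 and 2.93 CPM in SHAM fibroblasts (0.66 ± 0.19, SE). Both sets of libraries were separate in fibroblasts, but not in the other classes. In macrophages Polr1b had 2.29, 3.25 and 2.05 CPM in CLL libraries, against 2.77, 3.39 and 1.91 CPM in SHAM libraries (-0.12 ± 0.35, SE), and in myogenic cells 5.80, 3.37 and 6.58 CPM against 3.86, 5.35 and 3.69 CPM in SHAM libraries (0.43 ± 0.32, SE). Mybbp1a, a nucleolar protein that binds MYB, had a log2 fold of 0.73 ± 0.16 in fibroblasts, 0.27 ± 0.20 in myogenic cells and 0.29 ± 0.18 in macrophages (SE each). Myc was the only member lower in CLL libraries in myogenic cells at the threshold, with 62.4, 40.5 and 56.5 CPM in CLL libraries, against 88.5, 107 and 90.4 CPM in SHAM libraries (log2 fold -0.82 ± 0.17, SE). Every CLL value was below every SHAM value, as in 15.4% of all genes tested in that class. The adjusted p that defines this call stayed under the threshold without SHAM 2 but not without any other single library, the log2 fold then lying between -0.95 and -0.64. In fibroblasts Myc had 92.2, 74.4 and 75.9 CPM in CLL libraries, against 69.4, 74.2 and 66.05 CPM in SHAM libraries, the smallest fibroblast fold of the list at 0.21 ± 0.12 (SE). In macrophages it had 30.1, 15.7 and 24.4 CPM in CLL libraries, against 20.9, 10.4 and 9.98 CPM in SHAM libraries (0.74 ± 0.31, SE), and the groups overlapped. Immediate early genes, the class of rapidly induced genes to which Myc belongs, were also lower in CLL myogenic cells, where 6 of the 15 tested were called lower and 0 higher, with a summed level of 3702 to 4186 CPM in CLL libraries, against 6391 to 7608 CPM in SHAM libraries. Early genes of this kind respond to tissue dissociation, and their part in the Myc difference was not tested.

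The abundant nucleolar proteins made up most of the sum. Npm1, nucleophosmin, a histone and particle chaperone, had 1025, 1133 and 1052 CPM in CLL fibroblasts, against 858, 712 and 810 CPM in SHAM fibroblasts (log2 fold 0.43 ± 0.13, SE). In myogenic cells it had 1470, 1451 and 1514 CPM in CLL libraries, against 1189, 1268 and 1028 CPM in SHAM libraries (0.35 ± 0.15, SE), and in macrophages 562, 550 and 602 CPM against 516, 503 and 515 CPM in SHAM libraries (0.16 ± 0.13, SE). Its CLL values were above its SHAM values throughout, by small margins in macrophages. Ncl, nucleolin, which acts on rRNA transcription and processing, had 425, 461 and 389 CPM in CLL fibroblasts, against 292, 269 and 300 CPM in SHAM fibroblasts (0.57 ± 0.12, SE). In myogenic cells Ncl had 709, 821 and 587 CPM in CLL libraries, against 470, 557 and 560 CPM in SHAM libraries (0.42 ± 0.17, SE), and in macrophages, where the groups overlapped, 437, 472 and 358 CPM against 289, 382 and 340 CPM in SHAM libraries (0.33 ± 0.16, SE). Nme1 had some of the largest differences of the list. It had 368, 369 and 408 CPM in CLL fibroblasts, against 188, 163 and 165 CPM in SHAM fibroblasts (1.15 ± 0.12, SE), and 383, 407 and 428 CPM in CLL myogenic cells, against 216, 179 and 168 CPM in SHAM myogenic cells (1.11 ± 0.15, SE). In macrophages it had 212, 202 and 229 CPM in CLL libraries, against 163, 132 and 145 CPM in SHAM libraries (0.55 ± 0.13, SE). Nme1 has a close paralogue next to it in the genome, Nme2, so the split of reads between them is uncertain.

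**Figure D3:**
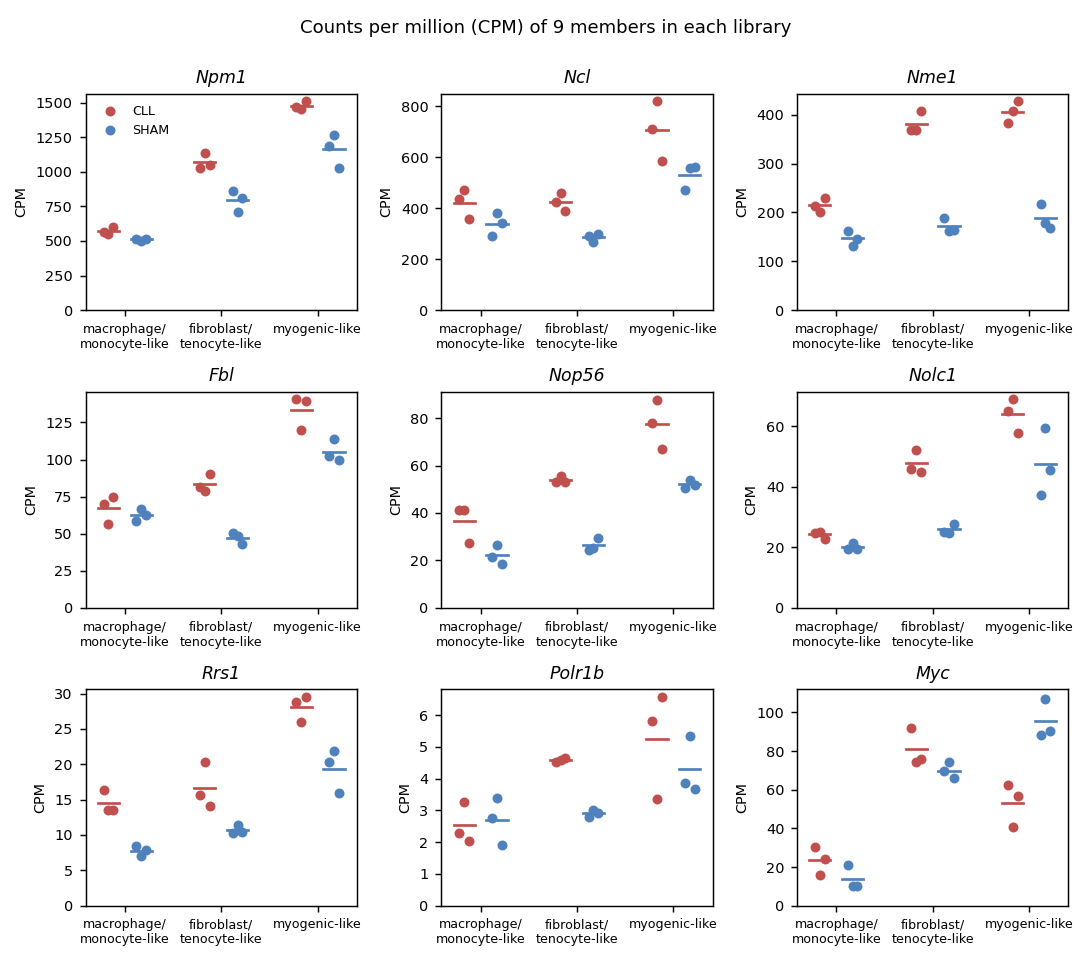
CPM per library (vertical axis) of 9 members in macrophages, fibroblasts and myogenic cells, with 1 point per library, a line at the group mean and CLL left of SHAM. Npm1, Nme1, Nop56 and Rrs1 show no overlap between CLL and SHAM in any of the 3 classes, Polr1b overlaps in macrophages and myogenic cells, and Myc is lower in all CLL libraries in myogenic cells.

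Of the 7 members of the small-subunit processome, 5 were called higher in fibroblasts, 1 in myogenic cells and 0 in macrophages. Rrp12, a protein needed for export and late maturation, had the largest fibroblast fold of the list, with 4.41, 5.29 and 3.31 CPM in CLL libraries, against 1.54, 2.11 and 2.09 CPM in SHAM libraries (log2 fold 1.21 ± 0.26, SE). In macrophages it had 5.40, 6.50 and 4.62 CPM in CLL libraries, against 2.92, 1.51 and 4.60 CPM in SHAM libraries (0.80 ± 0.36, SE), where the lowest CLL value was barely above the highest SHAM value. Bysl, an adaptor of the maturing small subunit, had 10.96, 13.5 and 11.8 CPM in CLL fibroblasts, against 7.05, 5.53 and 5.71 CPM in SHAM fibroblasts (0.96 ± 0.16, SE). In myogenic cells Bysl had 19.3, 14.5 and 16.3 CPM in CLL libraries, against 10.97, 8.03 and 7.07 CPM in SHAM libraries (0.90 ± 0.23, SE), and in macrophages 7.69, 5.32 and 6.92 CPM against 5.05, 3.77 and 4.04 CPM in SHAM libraries (0.62 ± 0.24, SE). It was the 1 member of this group called in myogenic cells. Pno1, which holds the 3′ end of the small-subunit rRNA, had a fibroblast log2 fold of 0.77 ± 0.14 and Ddx21, an RNA helicase, one of 0.67 ± 0.16 (SE). Utp20, a large processome scaffold, had 0.54 ± 0.13 (SE). Wdr43 and Utp4, subunits of the t-UTP subcomplex that binds the nascent precursor, had the smallest folds of the group in fibroblasts, 0.39 ± 0.16 and 0.27 ± 0.15 (SE), and were not called in any of the 3 classes. Utp4 had 9.24, 9.05 and 8.41 CPM in CLL fibroblasts, against 7.93, 6.71 and 7.39 CPM in SHAM fibroblasts, a small but separate difference.

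Large-subunit assembly was the biggest group, with 10 of 13 members called higher in fibroblasts, 3 in myogenic cells and 1 in macrophages. Rrs1, which brings the 5S particle into the precursor, was the 1 member called in macrophages, with 16.4, 13.6 and 13.5 CPM in CLL libraries, against 8.47, 6.97 and 7.85 CPM in SHAM libraries (log2 fold 0.88 ± 0.17, SE). The groups were separate, but the call was lost without CLL 1, CLL 3 or SHAM 3, with log2 folds of 0.79, 0.95 and 0.87. Ebna1bp2, an early assembly factor, had 91.9, 111 and 113 CPM in CLL myogenic cells, against 50.7, 72.8 and 58.7 CPM in SHAM myogenic cells (0.81 ± 0.17, SE). Bop1, part of the PeBoW complex with Pes1 and Wdr12, had 34.8, 24.1 and 35.4 CPM in CLL myogenic cells, against 19.9, 20.3 and 16.0 CPM in SHAM myogenic cells (0.77 ± 0.19, SE), and Nop16 had 29.5, 37.1 and 29.9 CPM, against 18.9, 18.2 and 20.3 CPM in SHAM libraries (0.73 ± 0.16, SE). These 3 were also called in fibroblasts, with log2 folds of 0.83 ± 0.13 for Ebna1bp2, 0.90 ± 0.14 for Bop1 and 0.85 ± 0.14 for Nop16 (SE each). Within PeBoW the 3 partners differed: the fibroblast folds of Pes1 and Wdr12 were 0.41 ± 0.13 and 0.45 ± 0.16 (SE). Nop16 in macrophages had 11.1, 11.5 and 12.1 CPM in CLL libraries, against 8.62, 6.97 and 7.73 CPM in SHAM libraries (0.56 ± 0.17, SE). Rrp1 was among the most highly counted members in macrophages, with 104, 89.0 and 93.7 CPM in CLL libraries, against 64.2, 96.2 and 90.8 CPM in SHAM libraries, overlapping values (0.20 ± 0.17, SE). In fibroblasts the remaining folds were 0.81 for Ftsj3, an rRNA methyltransferase, 0.69 for Rrp15, 0.64 for Rrs1, 0.46 for Rrp1, 0.45 for Gnl3, a nucleolar GTPase, and 0.30 for Ddx18, an RNA helicase. The 8 members called in none of the 3 classes were Ddx18, Gnl2, Myc, Nop10, Nop58, Utp4, Wdr12 and Wdr43, if Myc's lower value in myogenic cells is set aside.

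The make-up of the fibroblast class differed between the groups, and the members' folds were smaller within its clusters. Cluster 10, led by Ecrg4, Dio3 and Ddah1, held 1241, 1709 and 1919 cells in the CLL libraries, against 609, 54 and 59 in the SHAM libraries. Cluster 3, led by Ly6h, Abca8a, Gdf10 and Clec3b, held 108, 118 and 113 cells in the CLL libraries, against 1920, 277 and 154 in the SHAM libraries. Each group's fibroblasts thus came mostly from a different cluster. Within cluster 10 alone 8 members were called higher and 0 lower, beside 2.2% of all genes called higher, with a median log2 fold of 0.50, and the summed level was 3308, 3560 and 3278 CPM in CLL libraries, against 2657, 2447 and 2578 CPM in SHAM libraries. Within cluster 3 alone 0 of 34 were called, beside 0.696% of all genes called higher (3 of the 34 had an unadjusted p below 0.05 in edgeR), with a median of 0.25, and the sum was 2394, 2247 and 2269 CPM in CLL libraries, against 2176, 2090 and 2235 CPM in SHAM libraries. CLL libraries remained above SHAM libraries in both. Nme1 in cluster 10 had 384, 384 and 421 CPM in CLL libraries, against 303, 230 and 225 CPM in SHAM libraries, and in cluster 3 it had 165, 151 and 196 CPM in CLL libraries, against 145, 127 and 128 CPM in SHAM libraries. The single-cluster fits were added after the data had been seen, and they use fewer cells.

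In macrophages and myogenic cells the separation was present within clusters as well. The sum in the Gpnmb cluster of macrophages (cluster 7) was 2796, 2700 and 2643 CPM in CLL libraries, against 2307, 2516 and 2340 CPM in SHAM libraries. In the cluster with Cx3cr1 and MHC class II genes (cluster 8) it was 2728, 2451 and 2584 CPM in CLL libraries, against 2075, 2307 and 2271 CPM in SHAM libraries. In the cluster with F13a1 and Mrc1 (cluster 12) it was 2502, 2453 and 2133 CPM in CLL libraries, against 1804, 1899 and 1837 CPM in SHAM libraries. The number of members called higher in these 3 clusters was 0, 2 and 3, beside 0.855%, 0.939% and 1.99% of all genes, with medians of 0.21, 0.31 and 0.40. In the Pax7 and Myf5 cluster of myogenic cells (cluster 1) the sum was 4470, 4878 and 4423 CPM in CLL libraries, against 3556, 3581 and 3700 CPM in SHAM libraries, with 7 members called higher and 1 lower, beside 7.14% and 8.2% of all genes. In each of these clusters the lowest CLL library was above the highest SHAM library.

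**Figure D4:**
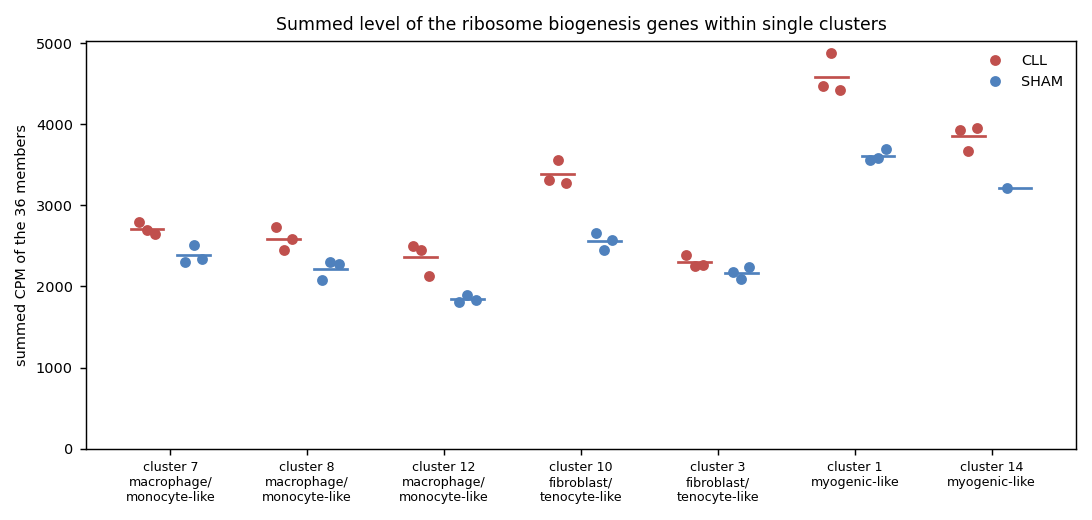
Summed level of the 36 members in CPM (vertical axis) within single clusters of macrophages (7, 8 and 12), fibroblasts (3 and 10) and myogenic cells (1 and 14), with 1 point for each library holding at least 20 cells of the cluster, a line at the group mean and CLL left of SHAM. CLL points lie above SHAM points in every cluster shown, by less in cluster 3 than in cluster 10; in cluster 14, led by histone genes and Top2a, the CLL points are at 3930, 3677 and 3956 CPM and the single SHAM point at 3217 CPM.

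Other quantities were compared between the groups, and some of them differed while others overlapped. The proliferation genes summed to 393 to 495 CPM in CLL fibroblasts, against 238 to 333 CPM in SHAM fibroblasts, to 1907 to 2184 CPM in CLL myogenic cells, against 1027 to 1532 CPM in SHAM myogenic cells, and to 500 to 585 CPM in CLL macrophages, against 373 to 431 CPM in SHAM macrophages. With cycling cells left out, among cells of at least 1000 UMIs, 27 members were called higher in fibroblasts, beside 1735 of 13960 genes, and all 27 were among the 28 above. In myogenic cells 8 were then called higher and 1 lower, beside 602 and 630 of 10512 genes, 6 of the 8 being among the 7 above. In macrophages 1 was called higher, beside 110 of 11121 genes. The medians were 0.65 in fibroblasts, 0.39 in myogenic cells and 0.28 in macrophages, and this setting was added after the data had been seen. With every cell holding a proliferation UMI left out, which leaves fewer cells and fewer genes to test, 1 of 31 members tested was called higher in fibroblasts, beside 198 of 8624 genes. In myogenic cells 1 of 18 was then called higher and 1 lower, beside 84 and 145 of 3218 genes. In macrophages 0 of 14 were called (1 had an unadjusted p below 0.05 in edgeR), beside 19 of 3920 genes higher and 38 lower. The medians were 0.59 in fibroblasts, 0.10 in myogenic cells and 0.24 in macrophages. Macrophage markers within the fibroblast class summed to 180 to 227 CPM in CLL libraries, against 318 to 711 CPM in SHAM libraries, with 11 of 13 tested called lower. In the myogenic class they summed to 2161 to 3810 CPM in CLL libraries, against 827 to 7339 CPM in SHAM libraries, with 0 of 14 called. Reads overlapping rRNA genes were 4.01% to 6.40% of UMIs in CLL fibroblasts, against 4.68% to 9.24% in SHAM fibroblasts, and mitochondrial UMIs were 1.45% to 2.31% in CLL fibroblasts, against 0.362% to 3.44% in SHAM fibroblasts. The part of these quantities in the members' differences was not tested, apart from the fits without cycling cells and without cells holding a proliferation UMI.

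Dendritic, endothelial and myofibre classes had not served to choose the members, and in none of them did a member pass the test. The summed level was 2445 ± 106 CPM in CLL dendritic cells and 2184 ± 136 CPM in SHAM dendritic cells (SD, n = 3 each), the lowest CLL library at 2326 CPM being just above the highest SHAM library at 2275 CPM. This depended on the scaling. With all classes scaled together, dendritic sums overlapped, at 2268 to 3434 CPM in CLL and 2513 to 2928 CPM in SHAM libraries. Endothelial sums were then all lower in CLL (1995 to 2167 CPM) than in SHAM libraries (2237 to 2795.5 CPM). Myofibre sums were all higher in CLL (1755 to 2542 CPM) than in SHAM libraries (1323 to 1709 CPM). In dendritic cells edgeR called 0 of the 27 members tested (4 had an unadjusted p below 0.05), DESeq2 also called 0 (2 unadjusted), and 1.88% of all genes were called, 0.463% higher and 1.42% lower. Every CLL library was above every SHAM library in 7 of the 27 (Nhp2, Nolc1, Ncl, Nme1, Wdr43, Gnl3 and Ftsj3), beside 9.44% of all genes tested, and below in 1, beside 10.6%. Nop58 had 45.0, 44.5 and 58.8 CPM in CLL dendritic cells, against 86.3, 101 and 98.1 CPM in SHAM dendritic cells, so that every CLL value was below every SHAM value (log2 fold -0.88 ± 0.24, SE, edgeR adjusted p = 0.078). Wdr43 had 93.3, 133 and 63.6 CPM in CLL dendritic cells, against 45.1, 46.4 and 60.8 CPM in SHAM dendritic cells (0.82 ± 0.29, SE, edgeR adjusted p = 0.174). The median over the 27 was 0.12, and Rrp9, Polr1b, Utp4, Utp20, Bysl, Rrp12, Wdr12, Nop2 and Rrs1 had too few counts to be tested. Ncl, Npm1, Fbl, Nop56 and Myc had log2 folds of 0.30, 0.15, 0.12, 0.05 and -0.56 there. In endothelial cells edgeR called 0 of 34 (2 had an unadjusted p below 0.05), DESeq2 also called 0 (1 unadjusted), and 0.0748% of all genes were called higher and 0.331% lower. The median was -0.09, and 13 of the 34 folds were above 0. CLL libraries were all above SHAM libraries in 0 members, beside 6.73% of all genes tested, and all below in 4 (Nop58, Dkc1, Nolc1 and Nme1), beside 9.91%. Nme1 had 150, 171 and 170 CPM in CLL endothelial cells, against 228, 237 and 247 CPM in SHAM endothelial cells (-0.53 ± 0.21, SE, edgeR adjusted p = 0.432). Nolc1 had 10.7, 41.4 and 24.3 CPM in CLL endothelial cells, against 45.9, 46.7 and 56.6 CPM in SHAM endothelial cells (-0.79 ± 0.35, SE, edgeR adjusted p = 0.516). Neither overlapped, and neither passed the test. Ncl, Npm1, Fbl, Nop56 and Myc had log2 folds of -0.18, -0.01, 0.01, 0.03 and 0.07 there, with SEs of 0.22 to 0.34. The proliferation genes in endothelial cells summed to 851 to 1133 CPM in CLL libraries, against 1720 to 2050 CPM in SHAM libraries, and their part in the members' values was not tested. The CLL libraries held 40, 201 and 53 endothelial cells, against 2582, 285 and 183 in the SHAM libraries, and the SEs of the 34 log2 folds ran from 0.21 to 0.82, against 0.11 to 0.26 in fibroblasts. In myofibres the 4 members with enough counts were Nop10, Ncl, Npm1 and Nme1. The edgeR fit called 0 of them, with 0 having an unadjusted p below 0.05, and DESeq2 called 0. The libraries of the groups overlapped in all 4, and CLL was all above SHAM in 5.43% of the genes tested, 0% being called higher and 0.483% lower.

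Across classes most members were higher in myogenic cells than in the mean of the other classes. Each class was set against the mean of the other 5 in 1 fit with the 6 libraries as a block, on a common scale, so CPM here differ from those above. The myogenic class holds cluster 1 with Pax7 and Myf5, cluster 14 with histone genes and Top2a, and cluster 27 with Chodl and Pax7. Cluster 16, with Myog, Myh3 and Mymk among its leading genes (838 cells), is not in it. Its scores on the myogenic and myofibre lists, 2.95 and 2.69, were too close for a name. In myogenic cells 28 of 36 members were higher and 0 lower (edgeR adjusted p under 0.05), with a median log2 fold of 0.59, beside 28.4% of 12223 genes called higher. The count was 20 from the SHAM libraries alone, and 25 to 29 on leaving out any single library. The 8 that were not higher were Nop10, Polr1b, Utp4, Ddx21, Pno1, Rrp12, Wdr12 and Gnl2. By role, 4 of 4 box C/D, 4 of 5 box H/ACA, 3 of 4 polymerase I, 3 of 3 abundant, 3 of 7 small-subunit and 11 of 13 large-subunit members were higher. Dkc1 had a lowest, median and highest value of 31.1, 40.4 and 45.1 CPM over the 6 libraries in myogenic cells, against 7.23, 11.7 and 12.7 CPM in macrophages and 13.1, 19.95 and 22.7 CPM in fibroblasts. Its myogenic value exceeded the mean of the other classes by 1.18 ± 0.15 log2 units (SE, edgeR adjusted p = 5.05e-08). Dkc1 in endothelial cells was also above the mean of the other classes, by 0.99 log2 units. Nop58 had 105, 123 and 154 CPM in myogenic cells, against 59.8, 81.4 and 100 CPM in fibroblasts and 34.0, 39.8 and 52.0 CPM in macrophages, so no library of either class reached the myogenic ones (0.99 ± 0.13, SE, edgeR adjusted p = 6.18e-08). Myc had 35.8, 67.4 and 95.05 CPM in myogenic cells, and 60.5, 67.5 and 84.1 CPM in fibroblasts, which lay within that range, against 12.9, 22.8 and 37.8 CPM in macrophages (0.95 ± 0.16 for myogenic cells, SE, edgeR adjusted p = 7.85e-06). Gar1 (0.90 ± 0.14), Nop2 (0.89 ± 0.20) and Rrp15 (0.88 ± 0.12, SE each) followed, with edgeR adjusted p of 2.03e-06, 0.000329 and 3.28e-07. At the other end were Nop10 (0.06 ± 0.11), Pno1 (0.08 ± 0.12), Gnl2 (0.16 ± 0.12) and Utp4 (0.17 ± 0.16, SE each), with edgeR adjusted p of 0.774, 0.669, 0.314 and 0.392. Nop10 had medians of 116 CPM in myogenic cells, 95.1 CPM in macrophages, 104 CPM in fibroblasts, 110 CPM in dendritic cells, 88.8 CPM in endothelial cells and 112 CPM in myofibres, with overlapping ranges.

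In each of the other classes fewer members were called higher than in myogenic cells, and some were called lower. Several of these counts were near the shares of all genes given beside them. Dendritic cells had 9 members higher and 4 lower, beside 26.7% and 27% of all genes. Gnl2, a GTPase that takes part in the export of the large subunit, had a lowest, median and highest value of 21.7, 68.5 and 96.0 CPM there, against 20.004, 29.7 and 40.5 CPM in myogenic cells, and had the highest fold of any member in any class (1.58 ± 0.13 log2 units, SE, edgeR adjusted p = 3.68e-12). Polr1a (1.14 ± 0.23), Fbl (1.05 ± 0.13), Ddx21 (0.96 ± 0.13) and Wdr43 (0.90 ± 0.14, SE each) were also higher in dendritic cells, while Bysl (-0.997 ± 0.30) and Dkc1 (-0.97 ± 0.26, SE each) were lower; without CLL 3 the count of lower members was 2. Endothelial cells had 12 higher and 3 lower, beside 26.7% and 28% of all genes, led by Dkc1 (0.99 ± 0.18), Gar1 (0.98 ± 0.16), Bysl (0.88 ± 0.20) and Nop2 (0.85 ± 0.24, SE each). The count of higher members was 7 without SHAM 3, and that of lower members 1 without SHAM 1. Macrophages had 4 higher and 11 lower, beside 37.4% and 27.7% of all genes. Pes1 (0.77 ± 0.10) and Rrp1 (0.67 ± 0.09, SE each) were higher there, and Polr1a (-1.24 ± 0.20), Dkc1 (-1.04 ± 0.18), Nop58 (-0.93 ± 0.14) and Myc (-0.88 ± 0.18, SE each) were lower. The count of higher members was 2 without CLL 1, CLL 2, SHAM 1 or SHAM 2. With another scaling (DESeq2 size factors), which shifted the median of all genes in macrophages by -0.14, the split was 2 higher and 17 lower. Fibroblasts had 3 higher and 11 lower, beside 35.4% and 29.9% of all genes. Myc (1.03 ± 0.16), Gnl3 (0.46 ± 0.11) and Nop16 (0.32 ± 0.14, SE each) were higher there, and Rrp12 (-0.97 ± 0.26) and Ddx21 (-0.84 ± 0.14, SE each) were lower. The count of 3 was 5 without SHAM 1. Myofibres had 0 higher (edgeR, from few counts) and 11 lower, beside 7.92% and 12% of all genes, with Wdr43 (-1.63 ± 0.27) and Gar1 (-1.21 ± 0.39, SE each) lowest. The 11 became 7 without CLL 1 or SHAM 1, 6 without CLL 3 and 5 without SHAM 2, and without SHAM 3 there was 1 higher.

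Cycling cells were set against the other cells of their class within each library, a contrast that had not served to choose the members. Cycling was called from UMIs of at least 2 proliferation genes after each cell had been thinned to 1000 UMIs. Cycling cells were 29.9%, 21.5% and 27.5% of the myogenic cells that could be thinned in CLL libraries, against 17.5%, 15.5% and 18.2% in SHAM libraries, and 7.51%, 7.12% and 7.30% of fibroblasts in CLL libraries, against 4.65%, 1.86% and 3.43% in SHAM libraries. In macrophages they were 8.47%, 8.97% and 6.23% in CLL libraries, against 6.76%, 2.86% and 3.83% in SHAM libraries. Cluster 0, led by histone genes, matched the tenocyte and then the fibroblast list best, but too weakly to be named. It held 157, 657 and 221 cells in the CLL libraries, against 198, 8 and 26 in the SHAM libraries, and is in no class. The fibroblast shares, the fibroblast contrast below and the fits without cycling cells do not cover it. In fibroblasts 20 of 36 members were higher in cycling cells and 0 lower, beside 10.6% of all genes called higher and 6.57% lower, over the 4 libraries with at least 10 cycling cells (CLL 1, CLL 2, CLL 3 and SHAM 1). Dkc1 had 33.8, 37.7, 35.4 and 25.8 CPM in cycling fibroblasts of these libraries, against 23.1, 23.1, 24.0 and 14.1 CPM in the other fibroblasts, higher in 4 of 4 (log2 fold 0.63 ± 0.10, SE, edgeR adjusted p = 0.000211). Nolc1 (0.56 ± 0.08), Nop56 (0.55 ± 0.07), Bysl (0.53 ± 0.14) and Rrs1 (0.48 ± 0.13, SE each) were also higher in 4 of 4, with edgeR adjusted p of 3.69e-05, 2.05e-05, 0.016 and 0.012, whereas Rrp12 (0.49 ± 0.25, SE, higher in 3 of 4) had an edgeR adjusted p of 0.208. All 4 box C/D members and 4 of 5 box H/ACA members were among the 20, with 2 of 7 of the small-subunit members. Myc had a log2 fold of -0.08 ± 0.07 (SE, edgeR adjusted p = 0.498). The count was 9 without CLL 1 and 12 without CLL 2 or CLL 3.

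In myogenic cells 2 of 35 members tested were higher in cycling cells and 2 lower, beside 16.4% and 12.7% of all genes, with a median log2 fold of -0.05. The difference between the classes was not tested. Nop56 averaged 82.8 ± 21.7 CPM in cycling myogenic cells and 58.6 ± 12.01 CPM in the others (SD, n = 6 libraries), higher in 6 of 6 (0.47 ± 0.10, SE, edgeR adjusted p = 0.004). Nme1 averaged 349 ± 91.1 CPM in cycling cells and 283 ± 132 CPM in the others (SD, n = 6), also higher in 6 of 6 (0.39 ± 0.12, SE, edgeR adjusted p = 0.026), a call lost without any 1 of the SHAM libraries. Myc averaged 56.5 ± 21.9 CPM in cycling cells and 82.2 ± 28.3 CPM in the others (SD, n = 6), lower in all 6 (-0.54 ± 0.15, SE, edgeR adjusted p = 0.018), and Rrp15 averaged 31.6 ± 8.50 CPM in cycling cells and 43.9 ± 9.13 CPM in the others (SD, n = 6), also lower in all 6 (-0.38 ± 0.12, SE, edgeR adjusted p = 0.034). The count of lower members was 0 without CLL 1 and 1 without CLL 2, CLL 3, SHAM 2 or SHAM 3. Nolc1, Nhp2, Rrp12 and Nop10 had log2 folds of 0.24, 0.24, 0.23 and 0.19 and did not pass the test. In macrophages 1 of 34 was higher and 0 lower, beside 3.09% and 1.81% of all genes: Nhp2 averaged 111 ± 20.8 CPM in cycling cells and 74.5 ± 17.7 CPM in the others (SD, n = 6), higher in 6 of 6 (0.50 ± 0.12, SE, edgeR adjusted p = 0.013), and without SHAM 2 the count was 2. Gar1 (0.69), Bysl (0.59), Utp20 (0.54), Rrp9 (0.49) and Nolc1 (0.44 log2 units) did not pass it. With thinned counts the calls were 1 in fibroblasts and 0 in the other classes, from fewer genes tested.

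**Figure D5:**
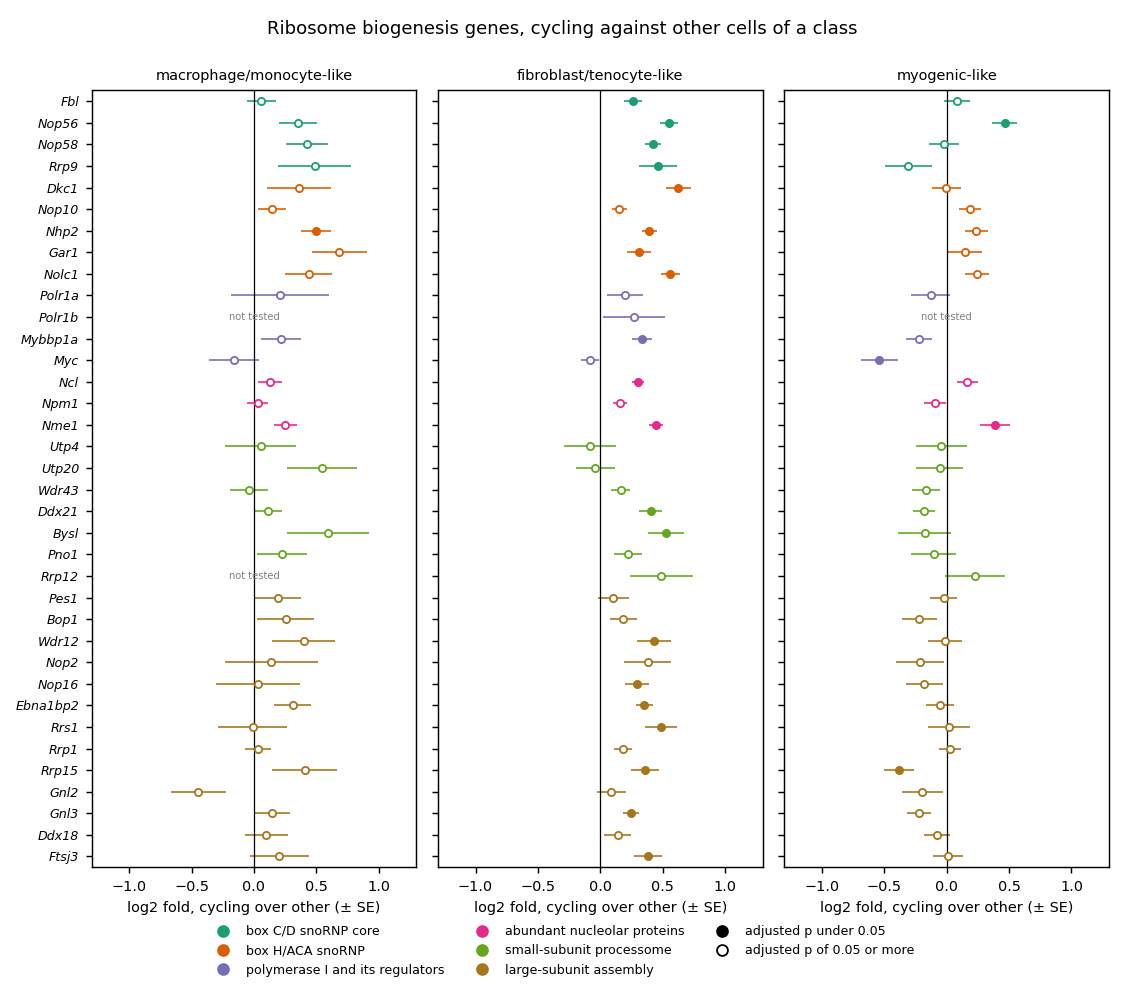
Log2 fold of cycling over other cells (horizontal axis, log2 units) for each member, coloured by role, in macrophages, fibroblasts and myogenic cells, with bars of 1 SE; filled points had an adjusted p under 0.05. Fibroblast points lie mostly above 0, with 20 filled, while myogenic points scatter around 0, with Nop56 and Nme1 filled above and Myc and Rrp15 filled below.

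Genes of the same pathways outside the 36 were counted from lists that had also been drawn up with results of these data known, and, for the contrast of CLL with SHAM in the 3 classes used above, they are described without p-values. The share to set beside each fibroblast count is that of all genes tested, 12.9% called higher and 14.5% lower. In fibroblasts 16 of 50 other small-subunit factors were called higher and 0 lower, with a median log2 fold of 0.29, among them Utp18 (1.04) and Mphosph10 (0.83), both processome proteins. Of 45 other large-subunit factors 19 were called higher and 2 lower, with a median of 0.34, among them Mrto4 (0.84) and Eif6 (0.83), which occupies the joining face of the large subunit. Of 18 other polymerase I genes 4 were called higher: Polr1e, a subunit specific to that enzyme, had 6.19, 6.37 and 6.22 CPM in CLL fibroblasts, against 3.23, 3.03 and 3.20 CPM in SHAM fibroblasts (log2 fold 0.98). Of 22 polymerase III genes 6 were called higher, and of 20 aminoacyl-tRNA synthetases 15, with a median of 0.52. Of 26 textbook MYC targets outside the members 16 were called higher and 0 lower, with a median of 0.42. Ldha, lactate dehydrogenase, led them with 565, 729 and 568 CPM in CLL fibroblasts, against 217, 198 and 234 CPM in SHAM fibroblasts (1.52), and Srm and Odc1 of polyamine synthesis had 1.14 and 0.93. Of 10 other genes of the MYC network 0 were called. Of 16 genes that host small nucleolar RNAs in their introns, 1 was called higher and 3 lower, counts near the shares of all genes. Zfas1 (-0.73) and Gas5 (-0.46) were among the 3 lower.

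In the other classes fewer genes of these lists were called. Of all genes tested, 3.52% were called higher and 4.43% lower in myogenic cells, and 1.1% and 1.9% in macrophages. In myogenic cells 1 of 50 small-subunit factors (Mphosph10, 0.77), 1 of 45 large-subunit factors (Mrto4, 0.65) and 3 of 20 synthetases were called higher, with medians of 0.18 and 0.20 over the first 2 lists. MYC targets had 7 called higher and 1 lower of 26: Ldha (1.33), the folate enzyme Mthfd2 (1.14) and Ran (0.84) were higher, and Ccnd2, cyclin D2, was lower (-1.66). Zfas1, a host of small nucleolar RNAs, had 165, 164 and 140 CPM in CLL myogenic cells, against 203, 333 and 314 CPM in SHAM myogenic cells (-0.85), all CLL values being below the SHAM values. In macrophages 0 of 50 small-subunit and 0 of 45 large-subunit factors were called, with medians of 0.15 and 0.16, and 1 of 26 MYC targets. Ribosomal protein genes, 82 of which were tested, had 6 called higher and 1 lower in fibroblasts, 0 and 1 in myogenic cells and 0 in either direction in macrophages, with medians of 0.11, 0.05 and 0.02.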

How the data were processed

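Single cells were profiled by droplet 3′ RNA sequencing. The deposited matrices hold raw UMI counts per gene and barcode, per the file headers and values. Cell Ranger 6.1.2 and the build mm10 are named in the submitters' processing notes, whose settings are not stated in the labels. Kept barcodes had 300 genes or more and no more than 15% of mitochondrial UMIs, and 7032 likely doublets were removed by a score, at a rate of 0.8% per 1000 barcodes in a library. Libraries shared at most 1.06% of their barcodes. Cells were clustered with scanpy 1.11.5 and the Leiden method of igraph 0.11.9 (2000 variable genes, 30 components, 15 neighbours, resolution 1) without 195 ribosome biogenesis genes, the members among them. Of the 30 clusters, 20 were named from marker lists and grouped into 11 classes. The names are rebuilt and not the authors'. Counts were summed per library and class and fitted over all genes with edgeR 4.0.16 (TMM scaling, filterByExpr, quasi-likelihood test, Benjamini-Hochberg adjustment, threshold 0.05). DESeq2 1.42.0 served as an alternative. The fit was also run on simulated data, but the outcome is not given here and nothing is read from it. Cycling was called on cells thinned to 1000 UMIs, which left out 9138 cells. PCR is collapsed by UMIs, and the precision of a value is limited by the counts and cells stated beside it.

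The members and the pathway lists were chosen with earlier results of these data known. Per-library values are given for the 6 members with the largest fold and the 4 with the highest mean in each class, for Myc, Ncl, Npm1, Fbl, Nop56 and Polr1b, and for a few others chosen after their values were seen. In all, 17 named alternatives and 9 added ones were run. Same-numbered CLL and SHAM libraries are not described as pairs, so the main fits have no replicate block. Of the features, 32158 matched a gene identifier of the RefSeq table used for names and promoters.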

Additional observations from a re-analysis of the deposited data

Results flagged for a closer look

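In 4 members the CLL libraries were all above the SHAM libraries in some classes and all below them in another. The share of all genes that did so was not counted, here or for the cycling cells below. In single classes CLL was all above SHAM in 12.1% of genes tested in macrophages, 21.2% in fibroblasts, 15% in myogenic and 9.44% in dendritic cells. It was all below in 15.4% in myogenic and 9.91% in endothelial cells. Dkc1 had a log2 fold of 0.44 in macrophages, 0.49 in fibroblasts and 0.39 in myogenic cells, but -0.47 in endothelial cells, where the highest CLL value (34.0 CPM) was barely below the lowest SHAM value (34.9 CPM). Nolc1 had 0.28 in macrophages, 0.88 in fibroblasts and 0.68 in dendritic cells, but -0.79 in endothelial cells. Nme1 had 0.55 in macrophages, 1.15 in fibroblasts, 1.11 in myogenic cells and 0.42 in dendritic cells, but -0.53 in endothelial cells. Myc had 0.21 in fibroblasts and -0.82 in myogenic cells. In the contrast of cycling with other cells, Mybbp1a had a log2 fold of 0.33 in fibroblasts, higher in every library used, and -0.22 in myogenic cells, lower in every library. Gnl3 had 0.24 in fibroblasts and -0.23 in myogenic cells in the same manner. These differences between classes were not tested, the endothelial values rest on 499 to 950 member UMIs per CLL library, and none of the endothelial values passed the test within its class.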

How the results depend on the processing

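The number of members called higher in CLL macrophages (1) was 3 with DESeq2, 6 with no filter on low counts, 2 at a limit of 10% mitochondrial UMIs and 0 with thinned cells, without cells holding a proliferation UMI or without both CLL 2 and SHAM 3; in clusters 7, 8 and 12 alone it was 0, 2 and 3, and leaving out single libraries gave 0 to 3. The fibroblast count (28) was 14 with thinned cells (34 tested), 1 without cells holding a proliferation UMI (31 tested), 8 in cluster 10 and 0 in cluster 3, and 22 to 28 without single libraries. The myogenic count (7) was 4 with DESeq2, 2 with thinned cells (23 tested), 1 without cells holding a proliferation UMI (18 tested), 1 without CLL 2 and SHAM 3, and 1 to 12 without single libraries; the 1 lower member was lost (0) with thinned cells and without CLL 2 and SHAM 3, and the range was 0 to 1 without single libraries. Same-numbered libraries did not deviate together in fibroblasts, where the correlations were -0.01, -0.07 and -0.03, and no class had all 3 above 0.1. Only endothelial cells had all 3 above 0 (0.14, 0.21 and 0.07). There a replicate block gave 89 genes called, against 38 in the main fit, with 0 members called in either. With the number as a replicate block the counts were 0 in macrophages, 27 in fibroblasts and 1 higher and 0 lower in myogenic cells. Between classes, macrophages had 2 higher in SHAM libraries alone and with DESeq2 size factors, and 17 lower with size factors (main 4 and 11); dendritic cells had 2 and 8 lower (main 4), endothelial cells 1 and 1 lower (main 3), and myofibres 6 and 6 lower (main 11) under these settings, with 1 higher in myofibres with size factors. Size factors shifted the median of all genes by -0.14 in macrophages, 0.12 in endothelial cells and 0.17 in myofibres, and gave 25 higher members in myogenic cells. Without single libraries the ranges of higher and lower members were 2 to 4 and 9 to 13 in macrophages, 2 to 5 and 8 to 13 in fibroblasts, 25 to 29 and 0 in myogenic cells, 8 to 9 and 2 to 5 in dendritic cells, 7 to 14 and 1 to 3 in endothelial cells and 0 to 1 and 5 to 9 in myofibres. For cycling cells the macrophage count (1) was 3 with at least 3 proliferation genes and 0 with thinned counts (14 tested), the fibroblast count (20) was 1 with thinned counts (29 tested), and the myogenic counts (2 and 2) were 0 and 0 with thinned counts (10 tested); without single libraries the ranges were 1 to 2, 9 to 17, and 1 to 2 higher with 0 to 2 lower. In dendritic and endothelial cells and myofibres the counts were 0 under every setting run. The endothelial median (-0.09) was 0.02 without CLL 2 and SHAM 3, 0.15 with thinned cells and 0.40 without cells holding a proliferation UMI. Of the alternatives for single named members, 735 stayed on the same side of the threshold, 112 fell short of it and 10 passed it anew. The sign changed in 9 of them, for 6 members (Fbl, Polr1b, Myc, Nop10, Rrp9 and Pno1), and 0 of the 9 had passed the threshold in either fit. Thinned counts and sums over fewer cells test fewer genes; the cause of the other changes was not tested.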
